A study of Mus musculus with 5 samples.

Results

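The genes described here are 10 enzymes and regulators of de novo lipogenesis, taken from a fixed list of names. They comprise the enzymes Acly, Acaca, Acacb, Fasn, Me1, Elovl6 and Scd1, the thyroid hormone-responsive protein gene Thrsp, and the transcription factor genes Srebf1 and Mlxipl. All 10 were found among the 52022 genes to which the deposited transcripts were assigned, and all 10 passed the count filter, as did 16450 genes in all. RNA was sequenced from brown adipose tissue (BAT) of 3 ATF4 BKO and 2 WT mice, 1 library per mouse. ATF4 BKO mice carry 2 floxed Atf4 alleles and a Cre recombinase transgene driven by the Ucp1 promoter, which is active in thermogenic adipocytes, so other cells of the tissue keep the gene. WT mice are littermates with the same floxed alleles and no Cre, so an effect of the Cre transgene cannot be told apart from that of the deletion. All mice were described as males on a C57Bl/6J background, 10 to 12 weeks old and fed ad libitum, that had been acclimated to 30 °C and then kept at 4 °C for 3 days.

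De novo lipogenesis builds fatty acids from acetyl units in the cytosol. Citrate exported from mitochondria is cleaved to acetyl-CoA, which is carboxylated to malonyl-CoA and condensed into palmitate with NADPH as the reductant, and palmitate is then elongated and desaturated. SREBP-1c, driven by insulin and liver X receptors, and ChREBP, driven by glucose metabolites, are the main transcription factors of these genes. BAT carries out lipogenesis beside fatty acid oxidation, and both are known to increase during prolonged cold.

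The libraries held between 24698337 and 32452751 estimated counts. Atf4 had 22.1, 40.5 and 16.4 TPM (a level corrected for transcript length and scaled to the same total in every mouse) in ATF4 BKO 1, 2 and 3 and 227 and 188 TPM in WT 1 and 2. ATF4 BKO 1 had 4598 counts of Xist, a transcript of female cells, where the other libraries had at most 7, which goes against its label as male. The fold changes of the 10 genes are therefore also given without this mouse. All 10 brown adipocyte markers were detected, and their summed level ranged from 15599 to 18593 TPM over all 5 mice. Skeletal muscle markers summed to between 70.2 and 75.2 TPM in ATF4 BKO mice, 152 TPM in WT 1 and 2271 TPM in WT 2.

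Promoter sequences are shown for the 2 genes with the widest spread between ATF4 BKO mice, Fasn and Acly, and for both annotated starts of Mlxipl, which give rise to different forms of ChREBP. Each window holds the 250 bases before a RefSeq start in GRCm38.p6 and overlaps no annotated exon of its gene. Capitals mark matches, on either strand, to the NF-Y box CCAAT, the E-box CACGTG and the sterol element TCACNCCAC, and the C/EBP-ATF element TGATGNAA was searched as well.
Fasn, chr11:120824548-120824797, minus strand: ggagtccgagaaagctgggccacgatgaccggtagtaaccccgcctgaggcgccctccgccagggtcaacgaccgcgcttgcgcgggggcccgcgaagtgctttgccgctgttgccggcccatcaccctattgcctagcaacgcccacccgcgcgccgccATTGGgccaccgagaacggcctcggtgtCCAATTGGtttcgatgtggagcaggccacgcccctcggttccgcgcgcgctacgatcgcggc
Acly, chr11:100528001-100528250, minus strand: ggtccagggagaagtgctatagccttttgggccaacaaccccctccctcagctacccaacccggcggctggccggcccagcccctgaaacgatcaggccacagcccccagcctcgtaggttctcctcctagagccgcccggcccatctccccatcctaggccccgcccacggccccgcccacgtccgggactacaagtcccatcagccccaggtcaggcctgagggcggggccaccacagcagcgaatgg
Mlxipl upstream start, chr5:135089640-135089889, plus strand: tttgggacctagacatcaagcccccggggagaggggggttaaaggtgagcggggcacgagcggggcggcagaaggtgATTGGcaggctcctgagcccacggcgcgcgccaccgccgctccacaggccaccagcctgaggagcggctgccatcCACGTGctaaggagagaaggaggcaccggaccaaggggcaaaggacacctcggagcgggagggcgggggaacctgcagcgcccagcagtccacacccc
Mlxipl downstream start, chr5:135106641-135106890, plus strand: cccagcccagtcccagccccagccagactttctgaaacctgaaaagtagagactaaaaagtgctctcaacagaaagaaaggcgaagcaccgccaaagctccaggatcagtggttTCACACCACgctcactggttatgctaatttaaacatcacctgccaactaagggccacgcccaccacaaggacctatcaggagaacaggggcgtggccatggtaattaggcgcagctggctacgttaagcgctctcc

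The Fasn window held 3 NF-Y boxes, 2 of which overlap on opposite strands between 62 and 55 bases before the start. The Acly window held no match to the 4 motifs. The upstream Mlxipl window held the E-box, 98 to 93 bases before the start, and 1 NF-Y box. The downstream window held the sterol element, 136 to 128 bases before the start. Of the 10 genes, 9 had at least 1 promoter in the table, 13 promoters in all. An NF-Y box was present in 7 of these 13 promoters, an E-box and a sterol element in 1 each and the C/EBP-ATF element in 0. Of 32851 promoters of the same length, 33.8% held an NF-Y box, 6.02% an E-box, 1.05% a sterol element and 3.45% the C/EBP-ATF element.

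In TPM, Fasn was the most abundant of the 10 genes, with a mean of 2603 over the 5 mice and a range from 797 to 5642. Scd1 followed with a mean of 1935 TPM (1206 to 3014), and Thrsp with 1061 TPM (318 to 1665). By mean TPM, Thrsp lay above 99.3% of the genes tested and the other 2 lay higher still. The next levels were 337 TPM for Acly, 285 for Acacb, 204 for Me1 and 180 for Elovl6. The lowest were 149 TPM for Mlxipl, 117 for Acaca and 90.9 for Srebf1, and Srebf1 still lay above 93.1% of the genes tested. The ranges of every adjacent pair in this order overlapped over the 5 mice. Within single mice, Scd1 lay above Thrsp, Thrsp above Acly and Acacb above Me1 in all 5. Fasn lay above Scd1 in every mouse but ATF4 BKO 2, while its protein-coding transcripts alone lay below those of Scd1 in every mouse. Of the Fasn level, between 24.8% and 39.2% came from protein-coding transcripts, the rest being assigned mainly to short transcripts with a retained intron, so its rank depends on how reads were split between transcripts.

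Summed over the 10 genes, the level was 12462, 3614 and 7777 TPM in ATF4 BKO 1, 2 and 3 and 4746 and 6218 TPM in WT 1 and 2. Both WT mice thus lay inside the ATF4 BKO range, whose ends were 3.45 times apart, and the WT mice were 1.31 times apart. The means were 7951 ± 4427 TPM (SD, n = 3) in ATF4 BKO mice, or 5695 TPM without ATF4 BKO 1, and 5482 ± 1040 TPM (SD, n = 2) in WT mice. These genes held 1.25%, 0.361% and 0.778% of all TPM in ATF4 BKO 1, 2 and 3 and 0.475% and 0.622% in WT 1 and 2. Fasn and Scd1 together made up 69.46%, 69.26% and 65.97% of the sum in ATF4 BKO 1, 2 and 3 and 56.05% and 60.2% in WT 1 and 2, so the sum mainly follows them. In a whole tissue, fewer cells of a type and less RNA per cell cannot be told apart.

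**Figure D1:**
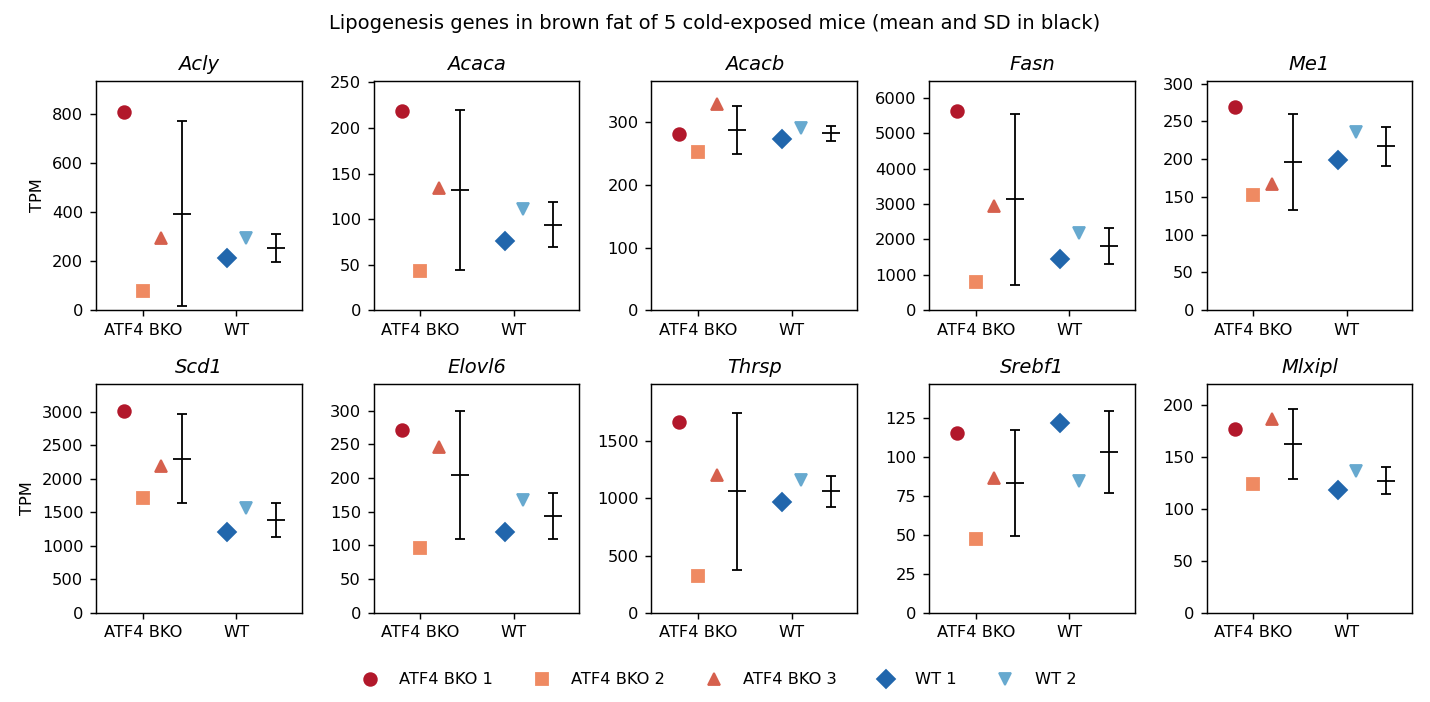
TPM (vertical axis, starting at 0) of each of the 10 lipogenesis genes in each of the 3 ATF4 BKO and 2 WT mice, with the mean and SD of each genotype in black. ATF4 BKO 1 is the highest mouse and ATF4 BKO 2 the lowest for Acly, Acaca, Fasn, Elovl6 and Thrsp, with both WT mice between them.

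Between the genotypes, edgeR's quasi-likelihood test called 0 of the 10 genes after Benjamini-Hochberg adjustment over all genes tested, at a threshold of 0.05. It called 0.00608% of all genes as higher and 0% as lower in ATF4 BKO mice, so the count over all genes was itself 1. At an unadjusted p under 0.05, 1 of the 10 was higher (Scd1) and 0 were lower, where 1.81% of all genes were higher and 3.42% lower. DESeq2 also called 0 of the 10, against 0.128% of all genes higher and 0.608% lower, and gave an unadjusted p under 0.05 to 1 of the 10, again Scd1, and to 5.79% of all genes. Atf4, the deleted gene, was itself not called by edgeR (log2 fold change -2.82, adjusted p = 0.671). DESeq2 called Atf4, with an adjusted p of 9.72e-12. An absence of calls by edgeR therefore says little about the 10 genes. The log2 fold change, ATF4 BKO over WT, lay above 0 for 9 of the 10 genes, as it did for 51.2% of all genes, and the median of the 10 was 0.63 beside 0.0077 for all genes. Without ATF4 BKO 1 the median was -0.03 with 5 genes above 0, and without ATF4 BKO 2 it was 0.96 with 10 above 0. The direction of the group therefore rested on ATF4 BKO 1, as the median stayed above 0 when any other single mouse was left out. On log2(TPM + 1) the median was 0.16 with 7 genes above 0.

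**Figure D2:**
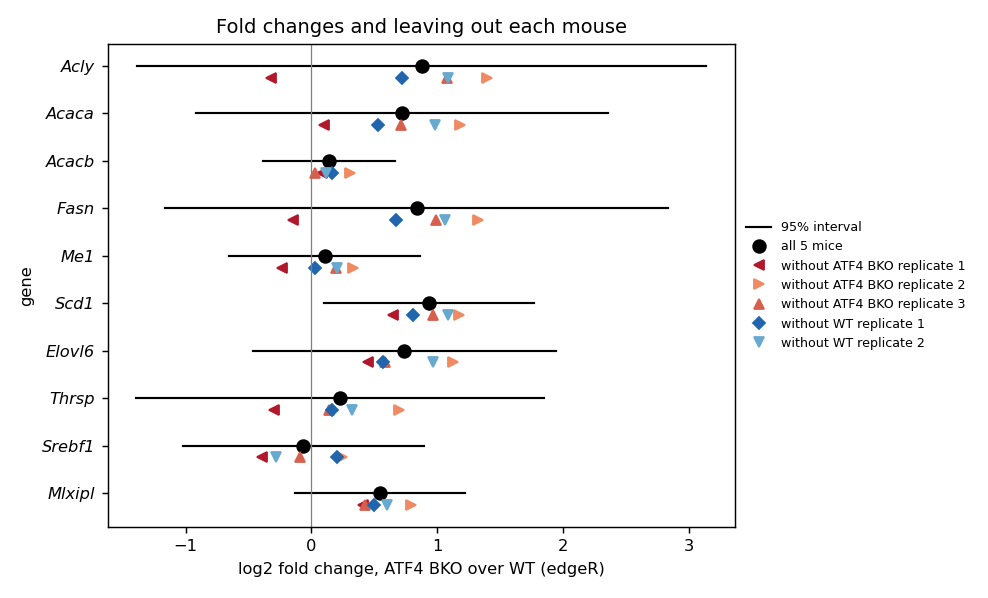
Log2 fold change of each gene, ATF4 BKO over WT (horizontal axis), from edgeR with all 5 mice (black point, line for the 95% interval) and with each mouse left out (coloured markers). The interval of Scd1, from 0.10 to 1.77, is the only one of the 10 that does not include 0, and leaving out ATF4 BKO 1 moves Acly, Fasn, Thrsp and Me1 to below 0.

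Acly encodes ATP citrate lyase, which makes cytosolic acetyl-CoA from citrate (ENSMUSG00000020917.17, chr11:100476353-100528000, minus strand, GRCm38). It had 2919, 235 and 965 CPM (counts scaled for library size, a unit for comparing mice within a gene) in ATF4 BKO 1, 2 and 3 and 646 and 850 CPM in WT 1 and 2. ATF4 BKO 1 was 12.4 times ATF4 BKO 2, the widest spread among the 10 genes, and ATF4 BKO 3 was close to WT 2. Its log2 fold change between genotypes was 0.88 (SE 0.93, 95% interval -1.39 to 3.14; edgeR, adjusted p = 0.942), and it was -0.32 without ATF4 BKO 1, 1.40 without ATF4 BKO 2 and 0.080 on log2(TPM + 1).

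Acaca and Acacb encode the acetyl-CoA carboxylases ACC1 and ACC2. ACC1 makes malonyl-CoA in the cytosol for fatty acid synthesis, and ACC2 makes it at the mitochondrial surface, where it restrains fatty acid entry. Acaca (ENSMUSG00000020532.18, chr11:84129672-84401651, plus strand) had 1867, 322 and 1111 CPM in ATF4 BKO 1, 2 and 3 and 557 and 778 CPM in WT 1 and 2. Its ATF4 BKO mice lay on both sides of the WT pair, and its log2 fold change was 0.72 (SE 0.67, 95% interval -0.91 to 2.36; edgeR, adjusted p = 0.938), or 0.10 without ATF4 BKO 1. Of its 31-base words, 33.5% also occur in transcripts of other genes, chiefly the predicted gene Gm5182, so its counts are less certain. Acacb (ENSMUSG00000042010.16, chr5:114146535-114250761, plus strand) had 1952, 1421 and 2096 CPM in ATF4 BKO 1, 2 and 3 and 1665 and 1646 CPM in WT 1 and 2. Its ATF4 BKO mice were 1.48 times apart, the least of the 10 genes. ATF4 BKO 1 was 1.37 times ATF4 BKO 2 in Acacb and 5.80 times in Acaca, so the carboxylase genes were spread unequally. Its log2 fold change was 0.14 (SE 0.22, 95% interval -0.39 to 0.67), 0.087 without ATF4 BKO 1 and -0.10 from protein-coding transcripts alone, which held between 38.4% and 61.1% of its TPM.

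Fasn encodes fatty acid synthase, which condenses acetyl and malonyl units into palmitate (ENSMUSG00000025153.9, chr11:120805846-120824547, minus strand). It had 18472, 2131 and 7237 CPM in ATF4 BKO 1, 2 and 3 and 4438 and 5946 CPM in WT 1 and 2. ATF4 BKO 1 stood 8.67 times above ATF4 BKO 2, and the WT mice were 1.34 times apart. The log2 fold change of 0.84 (SE 0.82, 95% interval -1.16 to 2.84; edgeR, adjusted p = 0.942) became -0.15 without ATF4 BKO 1.

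Me1 encodes cytosolic malic enzyme, one of the sources of NADPH (ENSMUSG00000032418.15, chr9:86581371-86695953, minus strand). It had 578, 283 and 359 CPM in ATF4 BKO 1, 2 and 3 and 351 and 405 CPM in WT 1 and 2. ATF4 BKO 3 lay between the WT mice, and ATF4 BKO 1 and 2 lay outside them on opposite sides. The log2 fold change of Me1 was 0.11 (SE 0.31, 95% interval -0.65 to 0.87). Its sign changed with library totals, at -0.02, on log2(TPM + 1), at -0.19, and without ATF4 BKO 1, at -0.23. Of the 31-base words of Me1, 36.9% occur in other genes, chiefly the predicted gene Gm7049.

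Scd1 encodes a stearoyl-CoA desaturase, which puts the first double bond into saturated fatty acyl chains (ENSMUSG00000037071.3, chr19:44394455-44407879, minus strand). It had 13455, 6681 and 9435 CPM in ATF4 BKO 1, 2 and 3 and 4605 and 5701 CPM in WT 1 and 2. All 3 ATF4 BKO mice lay above both WT mice, which held for 1 of the 10 genes and 8.95% of all genes tested. Scd1 thus had a log2 fold change of 0.94 (SE 0.34, 95% interval 0.10 to 1.77), with an adjusted p of 0.911 from edgeR (unadjusted p = 0.0333) and of 0.287 from DESeq2. Over the alternatives this adjusted p ranged from 0.287 to 1, and leaving out each mouse gave log2 fold changes from 0.65, without ATF4 BKO 1, to 1.17. With 3 against 2 mice, an exact permutation test of a single gene cannot go below p = 0.1, one-sided.

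Elovl6 encodes the elongase that extends palmitate to stearate (ENSMUSG00000041220.10, chr3:129532355-129638495, plus strand). It had 1485, 465 and 1313 CPM in ATF4 BKO 1, 2 and 3 and 556 and 747 CPM in WT 1 and 2. ATF4 BKO 1 and 3 lay close together above the WT pair, and ATF4 BKO 2 lay below it. Elovl6 had a log2 fold change of 0.74 (SE 0.49, 95% interval -0.46 to 1.94; edgeR, adjusted p = 0.92), which ranged from 0.45, without ATF4 BKO 1, to 1.12 when each mouse was left out.

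Thrsp encodes Spot 14, a protein that promotes lipogenesis and is induced by thyroid hormone and carbohydrate (ENSMUSG00000035686.8, chr7:97412938-97417730, minus strand). It had 1733, 290 and 1210 CPM in ATF4 BKO 1, 2 and 3 and 860 and 980 CPM in WT 1 and 2. ATF4 BKO 1 was 5.98 times ATF4 BKO 2. The log2 fold change of 0.23 (SE 0.66, 95% interval -1.39 to 1.85) was -0.30 on log2(TPM + 1) and -0.29 without ATF4 BKO 1, so no direction between genotypes can be given.

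Srebf1 encodes SREBP-1 (ENSMUSG00000020538.15, chr11:60199089-60222581, minus strand). It had 343, 133 and 253 CPM in ATF4 BKO 1, 2 and 3 and 293 and 214 CPM in WT 1 and 2. It was the single gene of the 10 whose log2 fold change lay below 0, at -0.06 (SE 0.39, 95% interval -1.02 to 0.89), and the value was -0.39 without ATF4 BKO 1, 0.25 without ATF4 BKO 2 and 0.21 without WT 1. Its spread between ATF4 BKO 1 and 2 was 2.58-fold, narrower than that of Acly, Fasn, Thrsp, Acaca or Elovl6. Of the counts assigned to a pair of coding transcripts that start 10.1 kb apart, the upstream one held 89.7%, 92.3% and 91.4% in ATF4 BKO 1, 2 and 3 and 85.4% and 92.1% in WT 1 and 2. WT 2 lay inside the ATF4 BKO range and WT 1 below it. The transcripts share exons, so reads in those exons cannot be given to either start.

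Mlxipl encodes ChREBP (ENSMUSG00000005373.13, chr5:135089890-135138382, plus strand). It had 413, 231 and 406 CPM in ATF4 BKO 1, 2 and 3 and 229 and 251 CPM in WT 1 and 2. ATF4 BKO 1 and 3 lay above the WT pair and ATF4 BKO 2 lay inside it. It had a log2 fold change of 0.54 (SE 0.28, 95% interval -0.13 to 1.22; edgeR, adjusted p = 0.911), with values from 0.41, without ATF4 BKO 1, to 0.79 when each mouse was left out. A transcript that begins at the upstream start, whose promoter is printed above, had 27.5, 7.3 and 8.6 estimated counts in ATF4 BKO 1, 2 and 3 and 15.8 and 9.8 in WT 1 and 2. A coding transcript from the downstream start, 17.0 kb away, had between 2277 and 4260. The upstream transcript is a short model without a coding sequence, so its counts do not measure all RNA from that start.

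**Figure D3:**
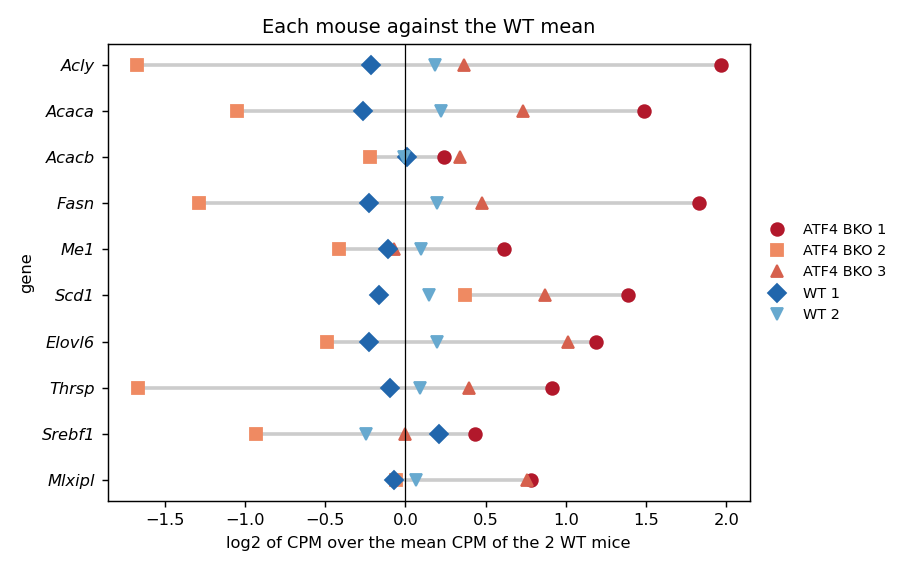
Log2 ratio of the CPM of each mouse to the mean CPM of the 2 WT mice (horizontal axis) for each of the 10 genes, with a grey line from ATF4 BKO 2 to ATF4 BKO 1. The median over the genes is 1.05 in ATF4 BKO 1, -0.71 in ATF4 BKO 2 and 0.44 in ATF4 BKO 3.

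The ATF4 BKO mice were ordered alike across the group. By CPM, ATF4 BKO 1 was the highest of the 5 mice for 9 of the 10 genes, Acacb excepted, where 16.7% of all genes, and 16.8% of the 1479 genes with a mean of at least 100 CPM, were highest in this mouse. ATF4 BKO 2 was the lowest for 8 of the 10, Scd1 and Mlxipl excepted, where 21.8% of all genes, and 36% of those 1479, were lowest in it. In 5 genes, Acly, Acaca, Fasn, Elovl6 and Thrsp, the order from high to low was ATF4 BKO 1, ATF4 BKO 3, WT 2, WT 1 and ATF4 BKO 2, an order found in 1.66% of all genes. Both WT mice lay inside the ATF4 BKO range in 8 of the 10 genes and in 31% of all genes.

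The ATF4 BKO mice were at least 2-fold apart in 8 of the 10 genes, Acacb and Mlxipl excepted, compared with 19.7% of all genes and 7.3% of genes with a mean of at least 100 CPM. Without ATF4 BKO 1, the ratio of ATF4 BKO 3 to ATF4 BKO 2 was 4.18 for Thrsp, 4.11 for Acly, 3.45 for Acaca, 3.40 for Fasn and 2.82 for Elovl6. The 3 mice were at least 5-fold apart in 4, Acly, Fasn, Thrsp and Acaca, which were among 12 such genes (0.811%) of the 1479. Among the other 8 of these 12, chosen for their spread, Scd2, which encodes another stearoyl-CoA desaturase, Ppp1r3b, which encodes a glycogen-targeting subunit of protein phosphatase 1, and the sorting receptor gene Sorl1 shared the order ATF4 BKO 1, 3 and 2. The WT mice were at least 2-fold apart in 0 of the 10 genes, in 13.1% of all genes and in 2.77% of the 1479. In all 10 genes the ATF4 BKO mice were further apart than the WT mice, as in 66.6% of all genes. The median ratio of the highest to the lowest ATF4 BKO mouse was 2.88 over the 10 genes and 1.38 over all genes, and for the WT mice it was 1.28 and 1.21. A range over 3 mice is wider than one over 2, and the list was proposed with its spread known, so these shares describe the genes and do not test them.

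Values of other cell types differed between the same mice. The summed macrophage markers, all 9 detected, were 689, 1324 and 436 TPM in ATF4 BKO 1, 2 and 3 and 197 and 1185 TPM in WT 1 and 2. They were thus highest in the mouse with the lowest lipogenesis genes, but were also high in WT 2, in which 8 of the 10 genes, and 50.4% of all genes, were above WT 1. Brown adipocyte markers summed to 15599 TPM in ATF4 BKO 2, where 6 of the 10 were lowest, 16983 and 18593 TPM in ATF4 BKO 1 and 3 and 16685 and 18554 TPM in WT 1 and 2. White adipocyte markers, of which 2 of 7 were below 1 TPM in every mouse, summed to between 42.2 and 130 TPM, highest in WT 1. Endothelial markers, all 7 detected, summed to between 431 and 552 TPM. Hepatocyte markers summed to between 4.04 and 7.71 TPM and mammary epithelium markers to between 0.74 and 11.5 TPM, with 7 of 8 of the latter below 1 TPM in every mouse. The share of counts from the mitochondrial genome was 15.1% to 15.6% in WT and 18.5% to 22.0% in ATF4 BKO mice. The part of these differences in the lipogenesis values was not tested.

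The names of the libraries carry 1 of 2 prefixes of unknown meaning, the first for ATF4 BKO 1 and 2 and WT 1 and the second for ATF4 BKO 3 and WT 2. The median log2 ratio of the 10 genes was 0.65 within the first and 0.33 within the second, beside 0.014 and -0.032 for all genes. Srebf1, at -0.30 and 0.24, and Me1, at 0.30 and -0.17, changed sign between the prefixes. The other 8 genes lay above 0 within both prefixes, among them Scd1 at 1.13 and 0.73 and Elovl6 at 0.81 within each. The share of all genes above 0 within both was not counted. Within the first prefix, the value sets the mean CPM of ATF4 BKO 1 and 2 against WT 1. ATF4 BKO 2 alone lay below WT 1 in Acaca, Acacb, Acly, Fasn, Elovl6, Thrsp and Me1, so their values above 0 there rested on ATF4 BKO 1. It also lay below WT 1 in Srebf1, whose value there was below 0.

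The wider pathway was described with 50 further genes of citrate and NADPH supply, elongation and desaturation, carboxylase and synthase partners, SREBP and ChREBP control and acylglycerol synthesis. Of these, 49 passed the count filter, Pklr excepted. With edgeR 0 of 49 were called in either direction, and 25 had a log2 fold change above 0 and 24 below, with a median of 0.03. Without ATF4 BKO 1 this median was -0.04, and the fold change of each pathway gene named below for its p-value kept its sign without this mouse, for example -0.51 for Mdh1, -0.47 for Fads1, -1.37 for Scd3, 0.31 for Nr1h3 and 0.28 for Dgat1. The median took the opposite sign under several alternatives, among them library totals at -0.09, beside -0.10 for all genes. The median spread between ATF4 BKO mice was 1.47-fold over these genes, against 2.88-fold over the 10 lipogenesis genes.

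Among 4 genes of citrate and acetyl-CoA supply, Mdh1, cytosolic malate dehydrogenase, had 78.9, 76.1 and 81.9 CPM in ATF4 BKO 1, 2 and 3 and 135 and 90.2 CPM in WT 1 and 2. All ATF4 BKO mice lay below both WT mice, as in 3 of the 49 pathway genes tested and 10.6% of all genes. The log2 fold change of -0.51 had an unadjusted p of 0.0335 and an adjusted p of 0.911 with edgeR. The citrate carrier gene Slc25a1 had 323, 93.0 and 161 CPM in ATF4 BKO 1, 2 and 3 and 126 and 165 CPM in WT 1 and 2. Of 6 genes of NADPH supply, G6pdx, which opens the pentose phosphate pathway, had a log2 fold change of -0.25. Tkt, transketolase of the same pathway, had 3493, 1022 and 2048 CPM in ATF4 BKO 1, 2 and 3 and 1765 and 1894 CPM in WT 1 and 2. Slc25a1 and Tkt, both picked after their values were seen, were thus also highest in ATF4 BKO 1 and lowest in ATF4 BKO 2. Over the 49 genes, 21 were highest in ATF4 BKO 1 and 22 lowest in ATF4 BKO 2.

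Among 14 genes of elongation and desaturation, the lowest unadjusted p-values belonged to the desaturase genes Fads1, with a log2 fold change of -0.54, and Scd3, with -1.70. Scd3 had few counts, between 1.01 and 5.59 CPM in ATF4 BKO mice and 3.81 and 13.3 CPM in WT mice. Scd2 had 494, 94.3 and 199 CPM in ATF4 BKO 1, 2 and 3 and 247 and 364 CPM in WT 1 and 2, so unlike Scd1 its genotypes overlapped. Of 3 carboxylase and synthase partners, Aasdhppt, which encodes the transferase that puts the phosphopantetheine arm on fatty acid synthase, had a log2 fold change of -0.21, and all 3 ATF4 BKO mice lay below both WT mice. Mlycd, which encodes malonyl-CoA decarboxylase, had 0.28, and Mid1ip1, a relative of Thrsp, had -0.05 with all mice and -0.38 without ATF4 BKO 1.

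Among 11 genes of SREBP processing and control, the ATF4 BKO mice were a median of 1.17-fold apart. Nr1h3, which encodes the liver X receptor alpha, had 98.1, 100.1 and 116 CPM in ATF4 BKO 1, 2 and 3 and 84.3 and 89.7 CPM in WT 1 and 2, a log2 fold change of 0.27 (edgeR, adjusted p = 0.911). Insig2, which encodes an anchor that retains SREBPs in the endoplasmic reticulum, had a log2 fold change of -0.24. Among 6 genes of ChREBP partners and glucose input, Slc2a4, the insulin-responsive glucose transporter gene, had 596, 264 and 588 CPM in ATF4 BKO 1, 2 and 3 and 353 and 393 CPM in WT 1 and 2. Among the ATF4 BKO mice, Txnip, which encodes an inhibitor of glucose uptake, was highest in ATF4 BKO 2 and lowest in ATF4 BKO 1, with 626, 1892 and 694 CPM in ATF4 BKO 1, 2 and 3 and 514 and 945 CPM in WT 1 and 2. Of 6 genes of acylglycerol synthesis, Dgat1, which encodes an enzyme of the last step to triglyceride, had 387, 346 and 389 CPM in ATF4 BKO 1, 2 and 3 and 281 and 327 CPM in WT 1 and 2. Its log2 fold change was 0.30 (edgeR, adjusted p = 0.911).

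**Figure D4:**
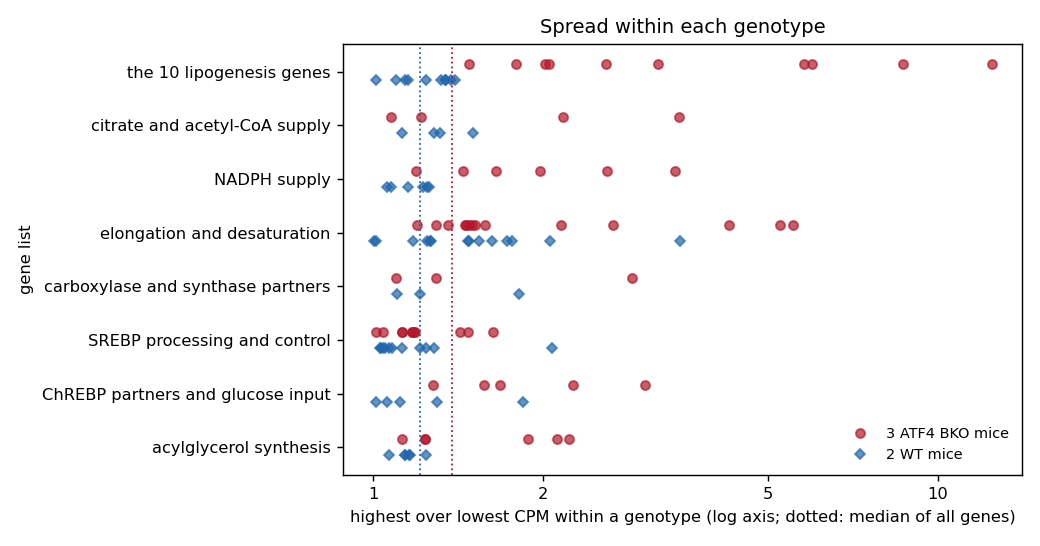
Ratio of the highest to the lowest CPM (horizontal log axis) among the 3 ATF4 BKO mice (red circles) and between the 2 WT mice (blue diamonds), 1 pair of symbols per gene, for the 10 lipogenesis genes and the 7 lists of pathway genes. Dotted lines mark the medians of all genes tested, 1.38 for ATF4 BKO and 1.21 for WT mice, and 4 lipogenesis genes and, among the pathway genes, Scd2 and Scd3 lie above a ratio of 5 among ATF4 BKO mice.

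The genes outside the group whose pattern over the 5 mice was most like that of its summed CPM were sought among 8721 genes with a mean of at least 10 CPM. Likeness was the root mean square difference of log2 CPM after centring, over 5 mice, and its median over these genes was 0.69. The nearest were Ak4, a mitochondrial adenylate kinase gene, at 0.093, and Pdk1, which encodes a kinase that inhibits pyruvate dehydrogenase, at 0.10. They were followed by Aacs, which encodes acetoacetyl-CoA synthetase, at 0.14, Acsl5, a long-chain acyl-CoA synthetase gene, at 0.16 and Cars2, mitochondrial cysteinyl-tRNA synthetase, at 0.17. The 10 genes themselves lay between 0.22 (Elovl6) and 0.60 (Acly) from their own sum, to which Fasn and Scd1 gave the most CPM in every mouse. Pdk1 had 188, 56.1 and 99.8 CPM in ATF4 BKO 1, 2 and 3 and 68.3 and 70.1 CPM in WT 1 and 2.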

How the data were processed

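The authors prepared stranded mRNA libraries from BAT and quantified transcripts with kallisto 0.45.0 (mm10, per the submitters' processing notes). They deposited, for each mouse, estimated counts per transcript, not normalized between mice, and TPM. The transcript annotation is not given in the sources used here. Both were summed per gene with GENCODE M21 names (GRCm38), where 138191 of 141450 transcripts matched, and estimated counts were rounded. The unmatched ones, 1.16% to 1.29% of counts, were left out.

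The genotype comparison used the quasi-likelihood test of edgeR 4.0.16 (R 4.3.3) after TMM scaling, on genes that reached 10 counts in 2 or more mice, and p-values adjusted by Benjamini-Hochberg were set against a threshold of 0.05. DESeq2, which the study also used (here version 1.42.0), and limma 3.58.1 on log2(TPM + 1) and log2(TPM + 0.1) were alternatives. Other alternatives changed the scaling or the filter, left out each mouse or added a block. The fit to protein-coding transcripts was chosen after seeing the data. Each mouse gave 1 library, and p-values set the difference between genotypes against the spread of these 5 mice within their genotypes.

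The 10 genes and all lists were chosen with earlier results of these data known. Named genes are the 10, Atf4, the 1 or 2 genes of lowest p in each pathway list and the 5 nearest in pattern. Slc25a1, Tkt, Scd2, Mid1ip1, Txnip, Ppp1r3b and Sorl1 were added after their values were seen. The fits were tested on simulated counts.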

Additional observations from a re-analysis of the deposited data

How the results depend on the processing

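Under every alternative run, 0 of the 10 genes and 0 pathway genes were called. Over all genes, edgeR made 1 call (860 at an unadjusted p under 0.05), DESeq2 made 121 (100 lower and 21 higher), and there were 8 calls without a filter beyond 1 count, 2 with limma on log2(TPM + 0.1), 0 on log2(TPM + 1) and 0 with the prefix as a block (876 at an unadjusted p under 0.05). Leaving out each mouse gave between 0 and 23 calls, 0 without any one ATF4 BKO mouse (506 to 1101 at an unadjusted p under 0.05) and 23 without WT 1. A replicate block was fitted to ATF4 BKO 1 and 2 and WT 1 and 2 only. Its values thus reflect both the block and the loss of ATF4 BKO 3. This fit gave 0 calls, with 697 genes at an unadjusted p under 0.05. Under it the median of the 10 genes was 0.20, the pathway median was -0.040 and Thrsp was -0.371. Acly was at 0.163, Fasn at 0.291, Acaca at 0.239 and Elovl6 at 0.370. Without ATF4 BKO 3 and without a block, the median of the 10 genes was 0.505, with Thrsp at 0.139, Acly at 1.078 and Fasn at 0.991. Same-numbered mice had correlations of deviations from their group means of 0.0459 and 0.198. The deviations of the 2 WT mice mirror each other, so these values cannot show whether the mice were paired. The median of all genes was -0.099 with library totals, -0.124 on log2(TPM + 1) and -0.169 on log2(TPM + 0.1). There the pathway median was -0.094, -0.160 and -0.163 and Me1 was -0.018, -0.185 and -0.186, and on both TPM scales Thrsp was -0.296 and -0.297. On log2(TPM + 1) Acaca was 0.232, Fasn 0.411 and Elovl6 0.394. The limma fits average log values over mice, while edgeR fits counts, so these shifts cannot be put down to scaling alone. With library totals, still in edgeR, Thrsp was 0.084, Acaca 0.575, Fasn 0.686 and Elovl6 0.604. Acacb was -0.100 from protein-coding transcripts. Leaving out each mouse gave ranges of -0.031 to 0.955 for the median of the 10 genes, 5 to 10 for those above 0, -0.041 to 0.108 for the pathway median, -0.319 to 1.396 for Acly, -0.148 to 1.328 for Fasn, -0.294 to 0.696 for Thrsp, -0.233 to 0.330 for Me1 and -0.394 to 0.247 for Srebf1. The lowest value of each of these came without ATF4 BKO 1. The summed TPM had means of 4000.1 in WT and 5411.5 in ATF4 BKO mice from protein-coding transcripts, and of 7341 and 12100 with mitochondrial genes left out of the scaling. The causes were not tested. With 2 WT mice and wide intervals, differences of the size seen for Acly or Fasn could not be told from no difference.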
